A study of Mus musculus with 9 samples.

Results

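Keratins form the intermediate filaments of epithelial cells, and 9 of their genes that separate the inner and outer layers of salivary ducts are described here in the mouse submandibular gland after irradiation. The genes were chosen by name and found in the deposited table by their Ensembl identifiers. All 9 were present among the 54532 identifiers of the table, and all 9 passed the filter on low counts that left 15224 genes for testing. A group of 5, Krt7, Krt8, Krt18, Krt19 and Krt23, is typical of the luminal cells that line a duct or acinus, and a group of 4, Krt5, Krt14, Krt15 and Krt17, is typical of basal cells. The glands came from wild-type mice (genotype WT in the labels) given 10 Gy of radiation, and RNA from 4 tissue sections of 50 µm per gland was sequenced in 3 samples each at 30, 60 and 90 days after irradiation. Non-irradiated glands, which the protocol mentions, were not analysed here. Each comparison thus sets irradiated glands against irradiated glands, and days since radiation cannot be told apart from ageing, since the labels give neither age nor sex. The labels do not say whether the samples of a time point came from separate mice, so p-values measure the spread between these samples, which may be technical.

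A keratin filament is built from pairs, each of a smaller acidic type I chain and a larger neutral or basic type II chain. Simple epithelia, such as acini and the luminal layer of ducts, rely on the pair of Krt8 (type II) and Krt18 (type I), joined in ducts by Krt7 (type II) and Krt19 (type I). Basal cells, which sit on the basement membrane, use Krt5 (type II) with Krt14 (type I), and the transcription factor p63, encoded by Trp63, is the main regulator of that programme. In salivary glands the contractile myoepithelial cells around acini also carry Krt5, Krt14 and Krt17, so these genes do not mark duct basal cells alone.

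The genes lie in the 2 keratin clusters of the mouse genome, and the positions below are those of GENCODE M21 on GRCm38. On chromosome 15 lie the type II genes Krt7 (ENSMUSG00000023039, 101411043 to 101430313, plus strand), Krt8 (ENSMUSG00000049382, 101996698 to 102004482, minus strand) and Krt5 (ENSMUSG00000061527, 101707070 to 101712898, minus strand). The type I gene Krt18 (ENSMUSG00000023043, 102028180 to 102032027, plus strand) stands beside Krt8, outside the type I cluster, with a start 23698 bases from that of its partner. On chromosome 11, all on the minus strand, lie Krt23 (ENSMUSG00000006777, 99477974 to 99493137), Krt15 (ENSMUSG00000054146, 100131758 to 100135928), Krt19 (ENSMUSG00000020911, 100140810 to 100148665), Krt14 (ENSMUSG00000045545, 100203162 to 100207548) and Krt17 (ENSMUSG00000035557, 100256217 to 100261029). The luminal Krt19 and the basal Krt15 are near neighbours, with starts 10192 bases apart, while Krt14 and Krt17 start 53481 bases apart.

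Promoter sequences from RefSeq (GRCm38.p6) were held for 6 of the 9 genes, Krt5, Krt7, Krt8, Krt14, Krt18 and Krt23. A basal and a luminal type II promoter are shown, since they were the only ones of the 6 in which a searched motif was found. Each is the 250 bases before the RefSeq start, 5′ to 3′ on the strand of the gene, and capitals mark the motif matches.

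Krt5, chr15:101712906-101713155, minus strand: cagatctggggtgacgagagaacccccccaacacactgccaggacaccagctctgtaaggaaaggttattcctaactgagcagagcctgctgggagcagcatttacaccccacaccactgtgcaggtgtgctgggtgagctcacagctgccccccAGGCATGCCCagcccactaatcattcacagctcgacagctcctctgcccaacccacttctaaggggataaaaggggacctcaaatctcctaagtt

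Krt7, chr15:101412153-101412402, plus strand: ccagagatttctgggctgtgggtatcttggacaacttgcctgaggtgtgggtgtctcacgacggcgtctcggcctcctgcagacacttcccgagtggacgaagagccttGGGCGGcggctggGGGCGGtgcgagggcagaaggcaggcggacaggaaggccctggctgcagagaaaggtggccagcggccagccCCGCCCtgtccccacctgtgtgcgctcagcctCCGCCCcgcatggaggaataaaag

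The capitals in the Krt5 promoter are a motif of the p53 family, the group of factors that includes p63, between 95 and 86 bases before the start. Of 32851 mouse promoters of this length, 7.13% hold that motif, so a match is common and is a description only. The capitals in the Krt7 promoter are 4 GC boxes (GGGCGG or its complement CCGCCC, without overlap), a motif held by 32.7% of all promoters. The Krt7 promoter has a GC content of 66.0% and the Krt5 promoter 56.0%, against a median of 52.4% over all promoters. Neither a TATA box (TATAAA, in 12.4% of promoters), a CCAAT box (CCAAT, 33.8%) nor an AP-1 site (TGANTCA, 6.75%) was found on either strand in any of the 6 windows. The RefSeq starts of Krt14 and Krt8 used here lie 1518 and 140 bases inside the GENCODE genes. The Krt14 window is therefore wholly inside its gene, and the Krt8 window shows the bases before the GENCODE start only in part. The printed Krt7 window ends where the main GENCODE transcript starts. It lies inside the Krt7 gene as GENCODE bounds it, from 101411043 on the plus strand.

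Related keratins share stretches of coding sequence, and reads from such stretches cannot be placed by sequence alone. The longest run shared by 2 of the basal genes is shown, since their values are compared below. It spans bases 1216 to 1286 of the Krt14 coding sequence and reads the same in Krt17, 5′ to 3′.

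Krt14 and Krt17: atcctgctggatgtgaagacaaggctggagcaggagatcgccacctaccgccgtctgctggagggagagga

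This run of 71 bases contributes to the 14.4% of 50-base stretches of the Krt14 transcript that recur in another gene, mostly in Krt16. For Krt17 the share is 3.99%, mostly in Krt14. It is 26.9% for Krt8, mostly in the pseudogene Krt8-ps, and 8.52% for Krt5, mostly in the wound keratin gene Krt6a. For Krt7, Krt19 and Krt23 it is 0%, for Krt15 0.666% and for Krt18 0.72%. The partners were close to silent: Krt6a and Krt16 had 3 counts each and Krt8-ps had 93 counts over the 9 libraries together. Of these pairs, Krt14 and Krt17 are the one in which both genes were well expressed. How the authors treated reads that fit several genes is not given in the sources used here.

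The libraries held between 16541396 and 26065856 counts, and those of the 30-day group were the shallowest. The 9 keratins took 0.0626% to 0.104% of all counts. Values are CPM, counts as a share of each library after TMM scaling (trimmed mean of M-values, which adjusts totals by the bulk of genes), with the 3 samples of each time point in label order. A floor of 3 counts corresponds to 0.101 to 0.213 CPM, and it covers counting error only, since the reads carry no molecular identifiers and copies of a molecule count again. In bulk tissue, fewer cells of a type and less RNA per cell cannot be told apart.

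Luminal keratins were the abundant ones. Per kilobase of the main transcript, the median over the 9 libraries was 202 CPM for Krt18 (range 163 to 242), 97.2 for Krt8 (89.0 to 117) and 58.6 for Krt23 (47.5 to 70.3). The ranges of these genes did not overlap. Krt7 followed at 28.2 CPM per kilobase (25.8 to 30.8), then the basal keratins Krt14 at 19.2 (15.9 to 27.8), Krt5 at 13.3 (10.5 to 22.1) and Krt17 at 9.50 (4.25 to 16.6). Krt7, Krt14, Krt5 and Krt17 each overlapped the next gene in that order. The luminal Krt19 was far lower, at 3.40 CPM per kilobase (1.17 to 4.68), in a range that overlapped Krt17, and the basal Krt15 was lowest at 0.838 (0.420 to 1.04). Krt7 depends on the length used: with all annotated exons its median was 16.4 CPM per kilobase (15.0 to 17.9), within the range of Krt14. The members summed per kilobase held less type II than type I message in every library, with a ratio of 0.414 to 0.538.

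Among luminal keratins, the simple-epithelial type II gene Krt8 measured 176, 202 and 180.0 CPM at 30 days, 222, 190.3 and 174 CPM at 60 days, and 185, 230.0 and 206 CPM at 90 days. The time points overlapped. Its type I partner Krt18 measured 320, 278 and 273 CPM, then 348, 289.7 and 234 CPM, then 271, 299 and 293 CPM. The means of Krt18 were 290.2 ± 25.7, 290.8 ± 57.2 and 288 ± 14.5 CPM (SD, n = 3 each), so its spread between samples was larger than any difference between time points. The log2 fold change (log2FC) of Krt18 at 90 over 30 days was -0.01 ± 0.13 (SE), with a 95% interval of -0.28 to 0.26, and that of Krt8 was 0.16 ± 0.12, with an interval of -0.09 to 0.40. Adjusted p-values from edgeR's quasi-likelihood test were 0.977 and 0.561.

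Krt7, the ductal type II keratin, measured 108, 115 and 122 CPM at 30 days, 124, 112 and 106 CPM at 60 days, and 123, 126 and 116 CPM at 90 days. The lowest and highest of the 9 samples differed little, and all time points overlapped. Krt23, a type I keratin of simple epithelia, measured 96.5, 89.8 and 83.5 CPM, then 110.1, 92.5 and 74.3 CPM, then 91.7, 91.9 and 81.3 CPM. Both its highest and its lowest sample were at 60 days. The log2FC values from 30 to 90 days were 0.08 ± 0.10 for Krt7 and -0.03 ± 0.12 for Krt23 (SE; edgeR adjusted p = 0.763 and 0.946). Their 95% intervals, -0.13 to 0.29 and -0.29 to 0.23, give the differences that these samples allow.

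Krt19, a type I keratin without a tail domain that marks ducts, was the luminal gene with the highest values at 90 days relative to its earlier ones. It had between 26 and 201 counts per library. Krt19 measured 1.84, 4.04 and 5.39 CPM at 30 days, 5.35, 4.30 and 2.09 CPM at 60 days, and 6.47, 6.91 and 7.38 CPM at 90 days. Every 90-day sample lay above every earlier sample, while the 30-day and 60-day samples overlapped. The means were 3.76 ± 1.79, 3.91 ± 1.67 and 6.92 ± 0.453 CPM (SD, n = 3 each). Krt19 had a log2FC of 0.86 ± 0.35 (SE) at 90 over 30 days, with a 95% interval of 0.12 to 1.61, and it did not pass the test (edgeR adjusted p = 0.221). From 60 to 90 days it was 0.82 ± 0.34 (adjusted p = 0.409).

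**Figure D1:**
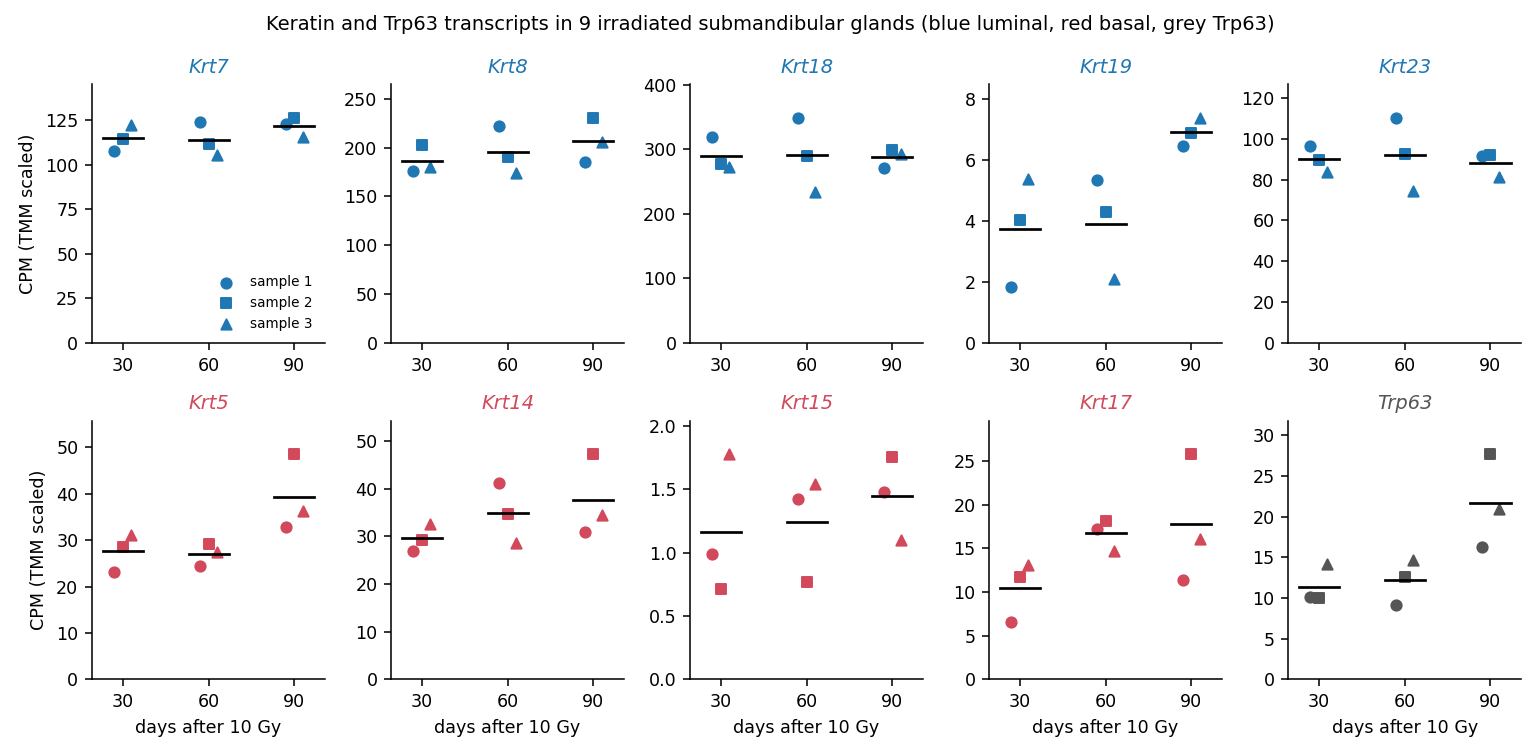
Transcript levels in CPM (y axis, from 0, a separate scale per gene) against days after 10 Gy (x axis) for the 5 luminal keratins (blue), the 4 basal keratins (red) and Trp63 (grey). Points are single samples, with a symbol for each sample number, and bars are means of 3; the 90-day samples of Krt19, Krt5 and Trp63 sit above all earlier ones, whereas the other genes overlap across time points or, for Krt17, separate only 60 from 30 days.

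Among basal keratins, Krt5 was the one that separated the last time point from both earlier ones. It measured 23.0, 28.5 and 31.2 CPM at 30 days, 24.3, 29.2 and 27.5 CPM at 60 days, and 32.9, 48.5 and 36.3 CPM at 90 days. All 90-day samples were above all others, with sample 2 the highest, and the 60-day samples lay within the range of the 30-day samples. The means were 27.6 ± 4.16, 27.0 ± 2.45 and 39.2 ± 8.20 CPM (SD, n = 3 each). Krt5 thus had a log2FC of 0.51 ± 0.14 (SE) at 90 over 30 days, a 1.42-fold higher level, with a 95% interval of 0.20 to 0.81 and an unadjusted p of 0.00259. After adjustment over all genes it narrowly missed the threshold of 0.05 (edgeR adjusted p = 0.0609). From 60 to 90 days it was 0.54 ± 0.14 (adjusted p = 0.150), from 30 to 60 days -0.03 ± 0.15 (adjusted p = 0.961), and the test of any difference among time points gave an adjusted p of 0.0528.

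The Krt5 call depended on the setting. For 90 against 30 days, Krt5 passed with DESeq2 (adjusted p = 0.0392), with scaling by library size alone (0.0461), with all libraries drawn down to equal depth (0.0391), without a filter on low counts (0.00172) and without 90-day sample 1 (0.0263). For 90 against 60 days it passed without a filter (0.00263). For 90 against 30 days it did not pass with limma-voom (0.0863), and without 90-day sample 2 the log2FC was 0.32 (adjusted p = 0.367). Krt5 also did not pass without 30-day sample 1 (0.288), 30-day sample 2 (0.142) or 90-day sample 3 (0.109). The same held with the 6 samples of the contrast alone (0.0913) and with the 10 most abundant genes left out of the library size (0.102). Over 20 alternatives the log2FC of Krt5 for 90 against 30 days ran from 0.32 to 0.73 and its adjusted p from 0.00172 to 0.367. In 14 of the 20 it was not called.

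Krt14, the type I partner of Krt5, did not follow the same steps. It measured 27.0, 29.2 and 32.7 CPM at 30 days, 41.1, 34.6 and 28.7 CPM at 60 days, and 30.9, 47.2 and 34.5 CPM at 90 days. All time points overlapped. The means were 29.6 ± 2.86, 34.8 ± 6.24 and 37.5 ± 8.53 CPM (SD, n = 3 each), and the log2FC from 30 to 90 days was 0.34 ± 0.16 (SE; edgeR adjusted p = 0.286). Without 90-day sample 2 that value was 0.14 (adjusted p = 0.811).

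Krt17, a type I keratin that epithelia induce on injury and stress, had the widest range relative to its level among Krt5, Krt14 and Krt17. It measured 6.59, 11.8 and 13.1 CPM at 30 days, 17.2, 18.2 and 14.7 CPM at 60 days, and 11.4, 25.7 and 16.1 CPM at 90 days. The 60-day samples were all above the 30-day samples, and the 90-day samples overlapped both groups. The log2FC was 0.66 ± 0.32 (SE; edgeR adjusted p = 0.461) from 30 to 60 days and 0.75 ± 0.32 (adjusted p = 0.283) from 30 to 90 days. The latter was 0.37 without 90-day sample 2 (adjusted p = 0.609) and 0.99 without 90-day sample 1 (adjusted p = 0.0483).

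Krt15, a type I keratin of basal and progenitor cells, was barely detected. It had 12 to 51 counts per library and measured 0.992, 0.713 and 1.78 CPM at 30 days, 1.42, 0.769 and 1.54 CPM at 60 days, and 1.48, 1.75 and 1.10 CPM at 90 days. The samples of all time points overlapped. The log2FC from 30 to 90 days was 0.32 ± 0.42 (SE), with a 95% interval of -0.55 to 1.20 (edgeR adjusted p = 0.774), so differences of the size seen for Krt5 were not detectable for Krt15 at this depth.

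None of the 9 keratins passed an adjusted p of 0.05 in edgeR's quasi-likelihood test between 60 and 30 days, between 90 and 60 days, between 90 and 30 days, or for any difference among time points. Of all 15224 genes, 1.56%, 0.256%, 3.57% and 3.29% passed in these tests. DESeq2 called 1 keratin, Krt5, in 90 against 30 days and for any difference, and limma-voom called 0 keratins. Over all genes DESeq2 called 860 and 847 in these tests, limma-voom 469 and 445, and edgeR 544 and 501. An unadjusted p under 0.05 was found for 0 keratins in 60 against 30 days (12.4% of all genes) and for Krt5 and Krt19 in 90 against 60 days (10.8%). In 90 against 30 days it was found for 4 of 9, Krt5, Krt14, Krt17 and Krt19 (16.8% of all genes, 8.38% when counted in the higher direction only, which all 4 share). For any difference it was found for Krt5 and Krt19 (16.7%). No keratin had a later group wholly below an earlier one, as 8.22%, 7.64% and 11.8% of all genes had in 60 against 30, 90 against 60 and 90 against 30 days. Groups that did not overlap, with the later one higher, were seen for 1 keratin, Krt17, in 60 against 30 days (8.65% of all genes) and for 2, Krt5 and Krt19, in both 90 against 60 days (8.3%) and 90 against 30 days (11.4%). These comparisons share libraries, and both results for Krt5 and Krt19 rest on the same 3 samples at 90 days.

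**Figure D2:**
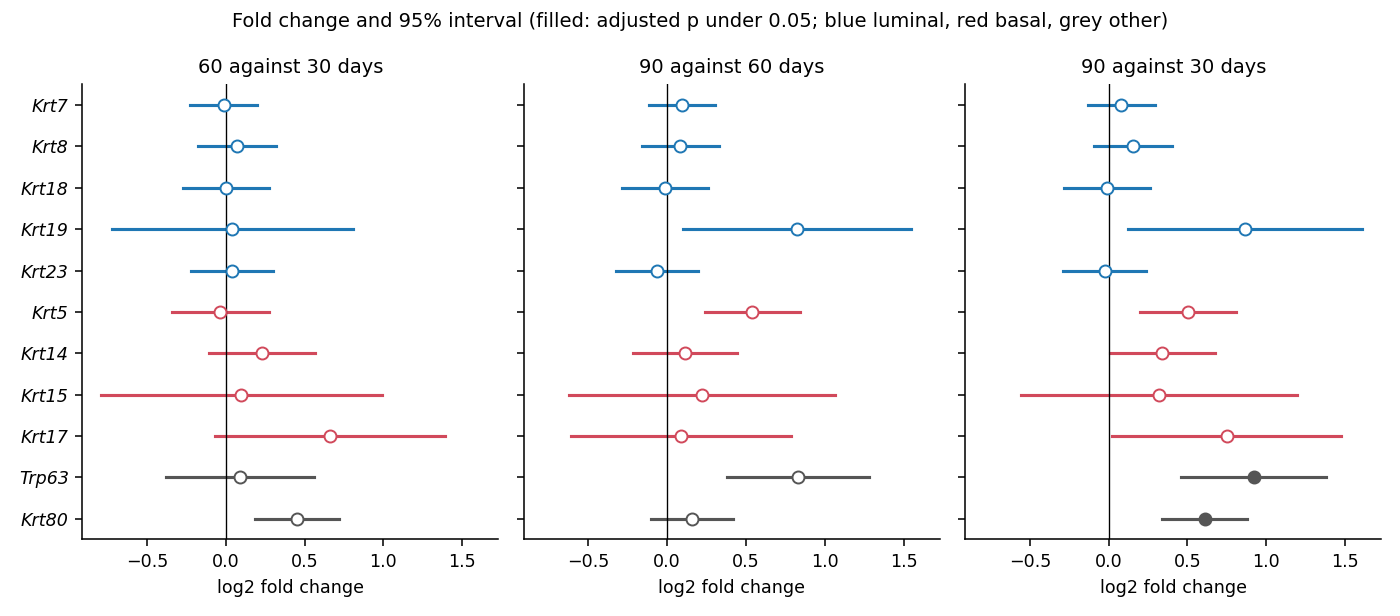
Log2 fold change with its 95% interval (x axis) for each gene (y axis) in the comparisons 60 against 30, 90 against 60 and 90 against 30 days; blue marks luminal keratins, red basal keratins, grey Trp63 and Krt80, and filled points an adjusted p under 0.05. In 90 against 30 days the 4 basal keratins lie between 0.32 and 0.75 and all luminal keratins except Krt19 between -0.03 and 0.16, and only Trp63 and Krt80 are filled.

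Set side by side from 30 to 90 days, the basal keratins had log2FC values of 0.32 to 0.75 with a median of 0.42, and the luminal keratins of -0.03 to 0.86 with a median of 0.08. The median over all 15224 genes was 0.01, and 21.9% of them lay at least as far from 0 as the basal median. All 4 basal and 3 of 5 luminal keratins were above 0, as were 52.1% of all genes. In 60 against 30 and in 90 against 60 days 7 of the 9 keratins were above 0, as were 49.6% and 50.1% of all genes. The luminal median rests on Krt7, Krt8, Krt18 and Krt23, all within 0.16 of 0, while Krt19 was above every basal gene. From 30 to 60 days the medians were 0.17 for basal and 0.04 for luminal keratins, and from 60 to 90 days 0.17 and 0.08. Scaling by library size alone moved the median of all genes to 0.24 for 90 against 30 days. Under that scaling Krt18 and Krt23 turned from just below 0 to 0.22 and 0.21, still under that median, and Krt5 stood at 0.73.

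Ratios within a library do not depend on how libraries are scaled. The log2 ratio of Krt5 to Krt8, the basal to the luminal type II keratin, was -2.93, -2.82 and -2.53 at 30 days, -3.19, -2.70 and -2.66 at 60 days, and -2.49, -2.24 and -2.50 at 90 days. Each 90-day library was above each earlier one, the closest being 30-day sample 3. The log2 ratio of Krt14 to Krt18, the corresponding type I pair, was -3.56, -3.25 and -3.06, then -3.08, -3.06 and -3.03, then -3.13, -2.66 and -3.08. Here the time points overlapped, and a single 90-day library, sample 2, stood above the rest. For all 9 keratins, log2 CPM was centred on each gene's mean, and the luminal mean was subtracted from the basal mean within each library. This difference was -0.28, -0.29 and 0.09 at 30 days, -0.11, -0.05 and 0.38 at 60 days, and -0.11, 0.41 and -0.05 at 90 days. It overlapped between all time points. Basal keratins made up 7.22%, 9.03% and 10.4% of the keratin message summed per kilobase at 30 days, 9.31%, 10.6% and 10.9% at 60 days, and 9.91%, 13.9% and 10.8% at 90 days. The lowest shares were in the 30-day group and the highest in 90-day sample 2, and all time points overlapped.

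The partners of each filament pair were also compared within libraries. The log2 ratio of Krt5 to Krt14 was -0.23, -0.03 and -0.07 at 30 days, -0.75, -0.25 and -0.06 at 60 days, and 0.09, 0.04 and 0.07 at 90 days. All 90-day libraries were above all earlier ones, and they were also the closest to each other. This ratio and that of Krt5 to Krt8 both have Krt5 as numerator, so they are not independent of the Krt5 values above. How often other gene pairs separate in this way was not counted. The log2 ratio of Krt8 to Krt18 was -0.86, -0.46 and -0.60, then -0.65, -0.61 and -0.43, then -0.55, -0.38 and -0.51, with overlap between all time points. The ratios of partners were chosen for their place in the filament, and all ratios are given without a test.

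**Figure D3:**
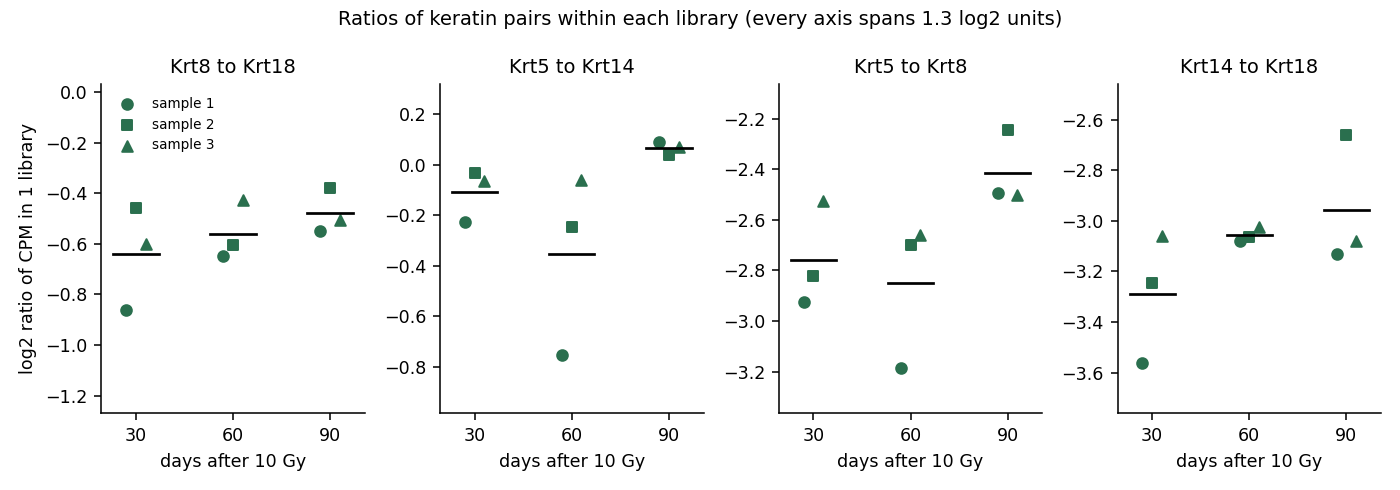
Log2 ratio of CPM within each library (y axis, each panel spanning the same number of log2 units) against days after 10 Gy (x axis) for Krt8 to Krt18, Krt5 to Krt14, Krt5 to Krt8 and Krt14 to Krt18; points are samples and bars means of 3. The 90-day points of Krt5 to Krt14 (0.04 to 0.09) and of Krt5 to Krt8 (-2.50 to -2.24) lie above all earlier points, and the other panels overlap.

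Across the 9 libraries, which share their time groups and scaling, levels of the keratins were compared as Pearson correlations of log2 CPM, given as a description. Krt18 and Krt23 had r = 0.88, Krt8 and Krt14 0.86, Krt14 and Krt17 0.85, Krt5 and Krt14 0.61 and Krt8 and Krt18 0.56. The median over the 10 luminal pairs was 0.51, over the 6 basal pairs 0.5 and over the 20 pairs of a luminal with a basal keratin 0.46. These medians lie close together and within the range of single pairs, -0.27 to 0.88. The genes whose levels were most like the mean of the basal keratins, among those with at least 5 CPM, were Cep85 (r = 0.962), Rnf144b (0.958), Psmb8 (0.948), Acvrl1 (0.942) and Ckb (0.941). For the mean of the luminal keratins they were Commd4 (0.949), Ethe1 (0.938), Ftl1 (0.938), Pdlim3 (0.937) and Tusc3 (0.928). These are the top 5 of 9562 genes searched over only 9 libraries, and such a selection raises the r values.

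Trp63, the regulator of the basal programme, showed a difference that passed the test. It measured 10.1, 9.99 and 14.1 CPM at 30 days, 9.19, 12.6 and 14.7 CPM at 60 days, and 16.3, 27.6 and 20.98 CPM at 90 days. As for Krt5, every 90-day sample was above every earlier one and sample 2 was highest. Trp63 rose from 11.4 ± 2.38 to 21.6 ± 5.70 CPM between 30 and 90 days (SD, n = 3 each), a log2FC of 0.92 ± 0.21 (SE; edgeR adjusted p = 0.0289). The call was lost with limma-voom (adjusted p = 0.0553) and without 30-day sample 1 (0.15), 30-day sample 2 (0.124), 60-day sample 2 (0.053), 90-day sample 2 (0.115) or 90-day sample 3 (0.0808). Over the 9 libraries Krt5 and Trp63 had r = 0.93, or 0.83 after the mean of each time point was removed. Krt14, Krt15 and Krt17 had 0.48, 0.48 and 0.57 with Trp63, or 0.26, 0.39 and 0.60 after that step. For the luminal keratins r with Trp63 ran from -0.44 (Krt23) to 0.53 (Krt19), or from -0.63 (Krt23) to -0.06 (Krt19) after that step.

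Other basal regulators and surface markers were taken from a list of 10 genes, of which 7 were tested. From 30 to 90 days 2 of the 7 rose, Trp63 and Ngfr, and 0 fell, with a median log2FC of 0.39. Of the 7, 5 were above 0, as were 52.1% of all genes, and 3.57% of all genes passed. Ngfr, a neurotrophin receptor found on basal and myoepithelial cells and on nerve sheaths, had a mean of 48.8 ± 13.8 CPM at 30 days and rose by 60 days to 111 ± 5.99 CPM (SD, n = 3 each; log2FC 1.18 ± 0.20, SE; edgeR adjusted p = 0.0134) and stood at 92.4 ± 18.1 CPM at 90 days (0.92 ± 0.20 against 30 days, adjusted p = 0.0276). Its 90-day call was lost without 60-day samples 1 or 3 or 90-day samples 2 or 3 (adjusted p = 0.0763, 0.0628, 0.104 and 0.0758) and with the 6 samples of the contrast alone (0.119), and its 60-day call without 60-day samples 1, 2 or 3 (0.0776, 0.0677 and 0.061). By p for any difference, Jag2 and Itga3 came next in the list. Their log2FC values from 30 to 90 days were 0.39 and -0.12 (edgeR adjusted p = 0.190 and 0.680).

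Keratins anchor to desmosomes between cells and to hemidesmosomes at the basement membrane. Of 15 desmosome genes 12 were tested, and from 30 to 90 days 1 rose, 0 fell and the median log2FC was 0.11. Over all genes 3.57% passed in that comparison and 52.1% were above 0. The riser was Pkp1, plakophilin 1, which ties keratins to the desmosomal plaque. Pkp1 went from 61.8 ± 11.6 to 90.0 ± 8.04 CPM (SD, n = 3 each; log2FC 0.54 ± 0.12, SE; edgeR adjusted p = 0.0182). Its call was lost without 30-day samples 1 or 2 or 90-day sample 3 (adjusted p = 0.118, 0.0648 and 0.109). Of 9 genes of hemidesmosomes and of the basement membrane laminin that they bind, 0 passed in edgeR and 8 were above 0, with a median of 0.13. Lamb3, a chain of that laminin, had the smallest p of that list, with a log2FC of 0.58 ± 0.16 (SE; adjusted p = 0.0549). Lamb3 passed with DESeq2 (adjusted p = 0.0129), at equal depth (0.0449), without a filter on low counts (4.79e-05) and without 30-day sample 3 (0.0167) or 90-day sample 1 (0.0373).

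Of 10 partners and modifiers of keratins, all tested, 1 rose from 30 to 90 days and 0 fell. The median log2FC was -0.01, and 3.57% of all genes passed. The riser was Sfn, the epithelial 14-3-3 protein that binds keratins such as Krt17. Sfn went from 7.25 ± 1.69 to 13.8 ± 2.78 CPM (SD, n = 3 each; log2FC 0.92 ± 0.21, SE; edgeR adjusted p = 0.0170), and its call was lost without 30-day sample 1 or 90-day samples 2 or 3 (adjusted p = 0.105, 0.0911 and 0.0869). Between 90 and 60 days 0 genes passed in any of these 4 lists.

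**Figure D4:**
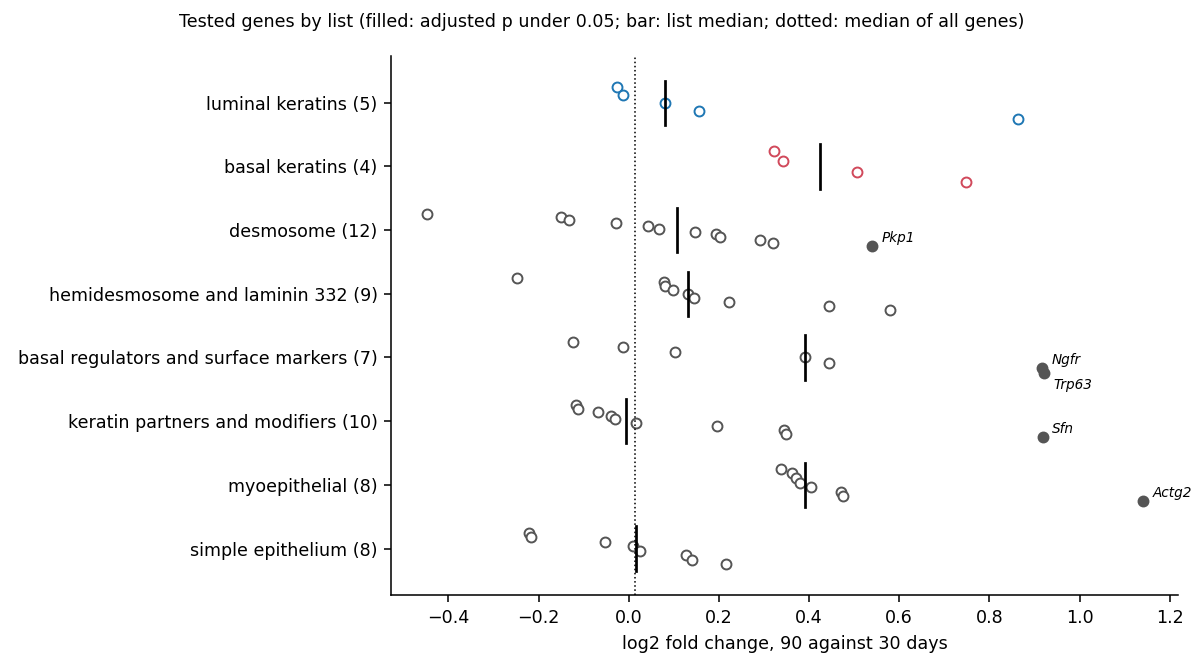
Log2 fold change from 30 to 90 days (x axis) of each tested gene, by list (y axis, number of tested genes in brackets). Filled points passed an adjusted p of 0.05 and are named, bars are list medians and the dotted line is the median of all genes; the bars of the basal keratins (0.42), the basal regulators (0.39) and the myoepithelial genes (0.39) lie to the right of those of the luminal keratins (0.08) and simple epithelium (0.02).

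The wound keratins Krt6a and Krt16 had 3 counts each over all 9 libraries and Krt6b had 0, below what could be tested. Of 15 genes of stratified and cornified epithelium 8 had 0 counts and 2 were tested, Krt10 and Sbsn, and neither passed. Krt10, the most abundant keratin of that list, measured 1.54 to 4.07 CPM over the libraries. The intestinal and urothelial Krt20 had 6 counts in all. Over all 46 keratin symbols of the table other than the 9 genes, those just named included, 17 had 0 counts, 5 were tested and 1 passed, Krt80, which is named here after its values were seen. Krt80, a type II keratin of many epithelia, measured 16.1, 19.3 and 18.1 CPM at 30 days, 27.0, 25.6 and 20.6 CPM at 60 days, and 26.3, 25.6 and 29.8 CPM at 90 days. The 30-day samples were the lowest of the 9. Krt80 rose by a log2FC of 0.61 ± 0.13 (SE; edgeR adjusted p = 0.0111) from 30 to 90 days, a call lost without 30-day sample 1 or 90-day sample 3 (adjusted p = 0.0742 and 0.0678).

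Markers of the cell types that carry these keratins were measured beside them. From 30 to 90 days 52.1% of all genes were above 0 and 3.57% passed, and the counts below stand beside these shares. Myoepithelial markers had a summed level of 327 to 454 CPM at 30 days, 481 to 533 at 60 days and 447 to 618 at 90 days. Of 9 listed 8 were tested, all 8 were above 0 from 30 to 90 days, with a median of 0.39, and 1 rose, the smooth muscle actin gene Actg2 (1.14 ± 0.22, SE; edgeR adjusted p = 0.00714). Markers of simple epithelium lay between 751 and 828 CPM in all libraries, with 0 of 8 called and a median of 0.02. Of 10 acinar markers 2 fell, Aqp5 and Ano1, with a median of -0.43 over the list. All 11 listed markers of granular and striated ducts were tested, and 9 were above 0 from 30 to 90 days, with a median of 0.48. Among them Egf, Klk1b22 and Ren1 rose (log2FC 2.09, 1.80 and 2.37, edgeR adjusted p = 0.00077, 0.0019 and 0.0358). Over 20 alternatives the calls of Egf, Klk1b22 and Actg2 held, while those of Aqp5, Ano1 and Ren1 were lost under 4, 6 and 9. The highest adjusted p was 0.206 for Aqp5 and 0.368 for Ano1, both with library size alone (log2FC -0.34 and -0.25), and 0.125 for Ren1, with limma-voom. Ren1 was also lost without a filter on low counts (0.0643). With single samples left out, the calls of Aqp5 and Ano1 were lost without 30-day sample 1 (adjusted p = 0.0629 and 0.123) or 90-day sample 2 (0.0721 and 0.159), and that of Ano1 also without 30-day sample 2 (0.0742) or 90-day sample 1 (0.0581). That of Ren1 was lost without any one of the 30-day samples (0.113, 0.111 and 0.0518), 60-day sample 1 (0.0569) or 90-day samples 2 or 3 (0.0944 and 0.06). The part of myoepithelial, ductal or acinar content in the keratin values was not tested.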

How the data were processed

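Bulk RNA sequencing of 9 irradiated submandibular glands was examined, with groups taken from the days in the sample titles. The authors deposited raw read counts per Ensembl gene. Reads were handled with fastp, STAR and featureCounts on mm10, per the submitters' processing notes, without versions; annotation release, use of strand and the treatment of multiply mapped reads are not given in the sources used here. The table has 3 more columns whose names fit none of the samples analysed here, and these were left out.

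Genes were filtered with filterByExpr (minimum count 10), scaled with TMM and tested over all 9 libraries with edgeR 4.0.16 (quasi-likelihood test, robust dispersion, Benjamini-Hochberg adjustment over 15224 genes, threshold 0.05; common biological coefficient of variation 0.150) in R 4.3.3. No pair of libraries of the same time point agreed within sampling noise. On simulated data for 90 against 30 days over 15224 genes, the test found 72% of genes given a log2 difference of 1 and 77% of those given 2. Of its calls 7.45% were false. Differences below 1, where all 9 keratins lay in that comparison, were not simulated, so their recovery is not known. Standard errors come from the F statistic, and 95% intervals from its degrees of freedom. Correlations used log2 CPM with a prior count of 2. Positions and lengths are from GENCODE M21, which holds 54495 of the identifiers, and symbols were found for 54409. Figures were drawn with matplotlib 3.10.9.

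The text names the 9 keratins and Trp63, the 5 genes most like each group's mean, and up to 4 genes per list with the smallest p for any difference. The keratins, the lists and the tests were chosen with earlier results of these data known. Alternatives were other scalings, DESeq2 1.42.0, limma-voom (limma 3.58.1), other filters, a fold threshold, the 6 samples of a contrast alone, each sample left out, the sample number as a block and, chosen after seeing the data, equal depth. A marker gene of the duct list is not reported here.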

Additional observations from a re-analysis of the deposited data

How the results depend on the processing

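The number of keratins with an adjusted p under 0.05 was 0 in all 4 tests and stayed at 0 for 60 against 30 days under each alternative. For 90 against 30 days it was 1 with library size alone, DESeq2, the replicate block and equal depth. It was 3 without a filter on low counts, and 0 to 2 when single samples were left out. Over all genes these settings called 440, 860, 717, 524, 1045 and 184 to 703, against 544 in the main setting. For 90 against 60 days the number of keratins was 1 with the replicate block and 2 without a filter. There 92 and 354 genes were called, against 39 in the main setting. For any difference the number of keratins was 1 with DESeq2, the replicate block, equal depth and at least 10 counts in every sample. It was 3 without a filter, and 0 to 1 when single samples were left out. Over all genes these settings called 847, 609, 459, 499, 1194 and 220 to 683, against 501 in the main setting. The single gene was Krt5 each time, joined by Krt19 and Krt17 without a filter, and by Krt17 without 90-day sample 1. With the replicate block the adjusted p of Krt5 was 0.0201 for 90 against 30 and 0.047 for 90 against 60 days, that of Lamb3 0.013 and that of Ren1 0.111 for 90 against 30 days. The cause was not tested. The labels do not say that equal sample numbers mark paired libraries, and with only 9 same-numbered pairs the correlations cannot decide it. Deviations from the group means correlated at -0.159 to 0.386 over these 9 pairs, with a median of 0.053, and 3 exceeded 0.1. Over the 18 other pairs the range was -0.373 to 0.336, with a median of -0.0045, and 4 exceeded 0.1. The replicate block moved the calls over all genes from 238 to 270, 39 to 92, 544 to 717 and 501 to 609.

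Of 180 keratin values per contrast, 152, 162 and 165 kept direction and call for 60 against 30, 90 against 60 and 90 against 30 days, 0, 3 and 9 gained a call, and 28, 15 and 6 changed sign, none of them called. With library size alone these were Krt7 at 0.026 and Krt5 at 0.0037 for 60 against 30 days, Krt18 at 0.17 and Krt23 at 0.13 for 90 against 60 days, and Krt18 at 0.22 and Krt23 at 0.21 for 90 against 30 days. Leaving the 10 most abundant genes out of the library size gave Krt8 -0.011, Krt18 -0.080, Krt19 -0.053 and Krt23 -0.046 for 60 against 30 days, and Krt18 0.021 for 90 against 60 days. Krt18 was -0.012 (60 against 30) and 0.0026 (90 against 60) with limma-voom, -0.0061 and 0.0026 with the replicate block, and -0.015 (60 against 30) at equal depth, where Krt19 was -0.00046. Without a filter Krt7 was 0.0053 for 60 against 30 days. With single samples left out, values for 60 against 30 days ran from -0.080 to 0.040 for Krt7, -0.029 to 0.15 for Krt8, -0.15 to 0.14 for Krt18, -0.27 to 0.39 for Krt19, -0.11 to 0.17 for Krt23, -0.14 to 0.066 for Krt5, -0.16 to 0.56 for Krt15 and -0.065 to 0.28 for Trp63. For 90 against 60 days they ran from -0.0069 to 0.18 for Krt8, -0.16 to 0.13 for Krt18, -0.21 to 0.081 for Krt23, -0.10 to 0.25 for Krt14, -0.030 to 0.40 for Krt15 and -0.30 to 0.32 for Krt17. For 90 against 30 days they ran from -0.062 to 0.061 for Krt18 and -0.085 to 0.027 for Krt23. The depth limits Krt15 and Krt19 most, at 12 to 51 and 26 to 201 counts per library.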

Other observations

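Intermediate filament genes of non-epithelial cells were measured in the same libraries. Vimentin, Vim, and desmin, Des, the filaments of mesenchymal and muscle cells, had log2 fold changes of 0.28 ± 0.18 and 0.81 ± 0.39 from 30 to 90 days (SE; edgeR adjusted p = 0.472 and 0.303), and 0 of the 2 passed in any pairwise comparison. Their summed level was 47.2 to 65.6 CPM at 30 days, 38.4 to 44.4 at 60 days and 53.1 to 92.2 at 90 days. Leukocyte markers summed to 23.2 to 34.9, 19.8 to 29.0 and 29.1 to 42.8 CPM, and 0 of the 4 tested passed in a pairwise comparison. The T cell gene Cd3e, with 94 counts in all, measured 0.189 ± 0.062, 0.218 ± 0.050 and 0.920 ± 0.332 CPM at 30, 60 and 90 days (SD, n = 3 each). Its log2 fold change at 90 over 30 days was 2.24 ± 0.63 (SE; edgeR adjusted p = 0.0550), and it passed the test of any difference among time points (adjusted p = 0.0432). Of 6 markers of intercalated ducts, 3 of ionocytes, 6 of fibroblasts and 4 of endothelium, 0 passed in any pairwise comparison, with medians from 30 to 90 days of -0.05, 0.02, 0.04 and 0.09.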
